A study of Danio rerio with 13 samples.

Results

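The regions described here were 258 windows of the zebrafish genome in which many different nucleotides were crosslinked to hnRNP A1. Their share of the listed hnRNP A1 cDNAs changed by less than 2-fold at genome activation, which is called stable here. A window was 10 kb of 1 strand. Each member held at least 100 and fewer than 1000 hnRNP A1 cDNAs over both stages and 200 or more distinct crosslinked nucleotides. Its share of all listed cDNAs at the later stage, divided by that at the earlier stage, lay above 0.5 and below 2. The rule left out the mitochondrial genome and chromosome 4 from 27.9 Mb, and the remaining windows are called nuclear windows here. Of 19341 windows with an hnRNP A1 site in either table, 18799 remained after this step, 1351 met the limits on cDNAs and ratio, and 258 of these also met the limit on nucleotides. The members were thus chosen by their cDNA number, their ratio and their number of nucleotides. These values are given below as a description and nothing is tested on them.

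hnRNP A1 is an abundant RNA-binding protein that shuttles between nucleus and cytoplasm. In mammalian cells it is known for its part in the choice of splice sites and for binding along pre-mRNA and in mRNA untranslated regions. An early fish embryo lives on RNA laid down by the mother until its own genome is switched on, and the maternal RNAs are then cleared. iCLIP uses UV light to bind protein covalently to RNA in intact embryos. Reverse transcription tends to stop at the linked nucleotide, so the end of a cDNA marks a crosslink site.

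Embryos of the wild-type AB strain were irradiated at 254 nm before zygotic genome activation (preZGA, 32 cells) or during it (ZGA, 1000 cells). RNA was recovered with an anti-hnRNP A1 antibody (n = 3 at preZGA and n = 4 at ZGA by the sample labels) or with IgG as negative control (n = 3 at each stage). The deposited tables hold the summed replicates of a group and list only significant sites, so a group is represented by 1 table without replicate values. Differences were therefore not tested against replicate error. The 95% intervals of cDNA and site counts cover counting error only, and those of medians and shares of windows cover the spread between windows. All treat cDNAs, sites or windows as independent, so separate or overlapping intervals are a description and no test. The hnRNP A1 tables listed 583691 uniquely mapped cDNAs on 287588 sites for preZGA and 480927 on 200258 sites for ZGA. These totals count listed sites and are not the depth of the libraries. Whole embryos were used, so more copies of an RNA and more hnRNP A1 on each copy cannot be told apart. Positions are in the assembly Zv9, counted from 1. Windows are named by chromosome, strand and first position. A Zv9 genome and annotation were not used here, and gene names and sequences are therefore not given.

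Together the members held over 1 in 10 of the listed cDNAs at either stage. At preZGA 86082 cDNAs lay on 55330 member sites, which was 14.7% of listed cDNAs (14.7 to 14.8) and 19.2% of listed sites. At ZGA 56726 cDNAs lay on 38127 sites, which was 11.8% of cDNAs (11.7 to 11.9) and 19.0% of sites. Their summed share ratio, ZGA over preZGA, was 0.800 (0.791 to 0.808) by cDNAs and 0.990 by sites. A member held 144 to 638 cDNAs at preZGA, with a median of 312.5, and 88 to 483 at ZGA, with a median of 202. Distinct crosslinked nucleotides ranged from 201 to 613 per window, with a median of 276.5.

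Most members held a somewhat lower share of the cDNAs at ZGA, within the limits of the rule. The ratio of single members ran from 0.502 to 1.64 with a median of 0.794, which is -0.33 on the log2 scale, beside -0.36 for the 1815 nuclear windows of at least 100 cDNAs with sites at both stages. It was below 1 in 219 members and above 1 in 39. The interval lay below 1 in 160 members (62.0%), where 50.0% of the 1822 nuclear windows of at least 100 cDNAs had such an interval, and above 1 in 10 members (3.88%), where 12.1% did. A ratio within the 2-fold limits was found in 78.1% of those windows. Since the ratio entered the choice, nothing is read from these counts.

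**Figure D1:**
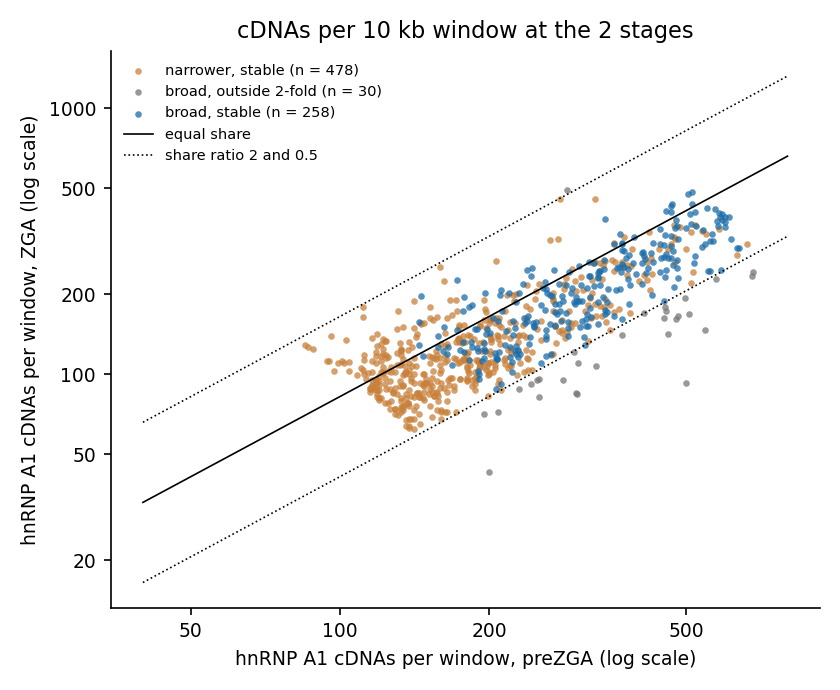
Each point is 1 window of 10 kb on 1 strand, with its hnRNP A1 cDNAs at preZGA (x, log scale) and ZGA (y, log scale); the solid line marks equal shares of the 2 tables and the dotted lines ratios of 2 and 0.5. The 258 broadly bound stable windows lie between the dotted lines, with 219 of them below the solid line; 478 narrower stable windows and 30 broadly bound windows outside the ratio limits are shown beside them.

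The members with the most cDNAs lay just under the upper limit of the rule. The window on chromosome 7 minus at 6160001 to 6170000 held 609 preZGA cDNAs on 336 sites and 389 ZGA cDNAs on 233 sites, a ratio of 0.775 (0.681 to 0.882). The window on chromosome 23 plus at 36360001 held 513 and 483 cDNAs on 181 and 175 sites, a ratio of 1.14 (1.01 to 1.30). These counts were spread over 432 nucleotides in the first window and over 237 in the second, so similar totals came with different breadth. Next came chromosome 3 plus at 18650001 (589 and 400 cDNAs), 3 plus at 32550001 (598 and 390), 3 minus at 39960001 (572 and 416) and 12 minus at 11540001 (582 and 404). The other 4 of the leading 10 were chromosome 8 minus at 26670001 (504 and 476), 7 minus at 33230001 (585 and 391), 5 minus at 30550001 (591 and 381) and 7 plus at 34770001 (598 and 374). All 10 held fewer cDNAs at ZGA, whereas 2 of them held a higher share.

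The broadest members were mostly other windows: 1 window was among the leading 10 by both cDNAs and nucleotides, chromosome 5 minus at 30550001 with 556 nucleotides. Chromosome 2 minus at 55960001 led with 613 crosslinked nucleotides, with 351 preZGA sites (455 cDNAs) and 336 ZGA sites (410 cDNAs). Its ratio was 1.09 (0.955 to 1.25). Chromosome 17 plus at 28120001 followed with 584 nucleotides, from 616 cDNAs at preZGA and 323 at ZGA, a ratio of 0.636 (0.554 to 0.729). Chromosome 5 minus at 66060001 also had 584 (479 and 361 cDNAs), and chromosome 24 minus at 20250001 had 568 (541 and 349). The remaining 5 had 519 to 544 nucleotides and lay on chromosomes 2 minus (51530001), 6 plus (38650001), 10 minus (16850001), 8 plus (42710001) and 3 minus (5670001). The strongest nucleotide of these 10 windows held 5 to 14 cDNAs. The fewest, 5, were on chromosome 2 minus at 51530001, where they made up 0.637% of the window's cDNAs, and the most, 14, on chromosome 8 plus at 42710001.

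The highest and lowest ratios describe how far the choice reached. Chromosome 16 minus at 58410001 had the highest, 1.64 (1.32 to 2.04), with 146 cDNAs at preZGA and 197 at ZGA. Chromosome 2 plus at 23300001 followed at 1.59 (172 and 225 cDNAs), then 20 plus at 2770001 at 1.36 (342 and 384), 5 minus at 58680001 at 1.33 (178 and 195) and 11 minus at 44690001 at 1.32 (144 and 157). The lowest were chromosome 14 plus at 52650001 at 0.502 (312 and 129 cDNAs), 20 plus at 23930001 at 0.507 (450 and 188) and 23 minus at 22790001 at 0.509 (587 and 246). Chromosome 6 minus at 40630001 (206 and 88) and 14 plus at 51260001 (254 and 110) came next, at 0.518 and 0.526.

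The windows nearest each limit were picked by their closeness to it, so small differences across a limit follow from the choice. At the upper ratio limit a gap lay between the nearest windows. Just inside the limit on nucleotides were 2 windows with 201 and 1 with 202, on chromosomes 17, 3 and 7, and just outside were 3 windows with 199, on chromosomes 6, 12 and 18. Just outside the lower ratio limit lay chromosome 5 plus at 65390001 at 0.499, 12 minus at 11440001 at 0.494 and 23 plus at 39050001 at 0.481. Above the upper limit lay a single window that met the other limits, chromosome 21 minus at 18740001 at 2.09 (287 and 494 cDNAs), and the nearest member was at 1.64. The lowest total among members was 264 cDNAs, on chromosome 10 plus at 11060001, well above the lower limit of 100, and the highest was 998. Windows just over the limit held 1006, 1009 and 1033 cDNAs.

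Although chosen as broad, the members were bound over a part of their 10 kb. The distance from the first to the last site of either stage had a median of 2484.5 nt (2194 to 2862). It ran from 396 nt on chromosome 1 minus at 19920001 to 9871 nt on chromosome 11 plus at 16960001. In that last window 99.4% of the cDNAs lay downstream of a site-free gap of 8831 nt, and 90% lay in 888 nt. In the members, 50% of the cDNAs lay in a stretch of 452.5 nt per window in the median (418 to 513), with extremes of 92 and 2563 nt, and 90% in 1522.5 nt. In 234 of 258 windows that 50% fitted into 1000 nt, and in 174 windows 90% of the cDNAs fitted into 2000 nt. Sites were found in 3 of the 10 bins of 1 kb in the median and in at most 8. No member had a site in each of the 10 bins.

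For comparison, 478 stable windows with at least 200 and fewer than 1000 cDNAs had fewer than 200 nucleotides and are called narrower windows here. Their median first-to-last distance was 1455.5 nt and 50% of their cDNAs lay in 131 nt. Because the number of nucleotides chose both sets, these lengths describe the split and are no test of it. The 2 sets overlapped: narrower windows reached a distance of 9832 nt.

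**Figure D2:**
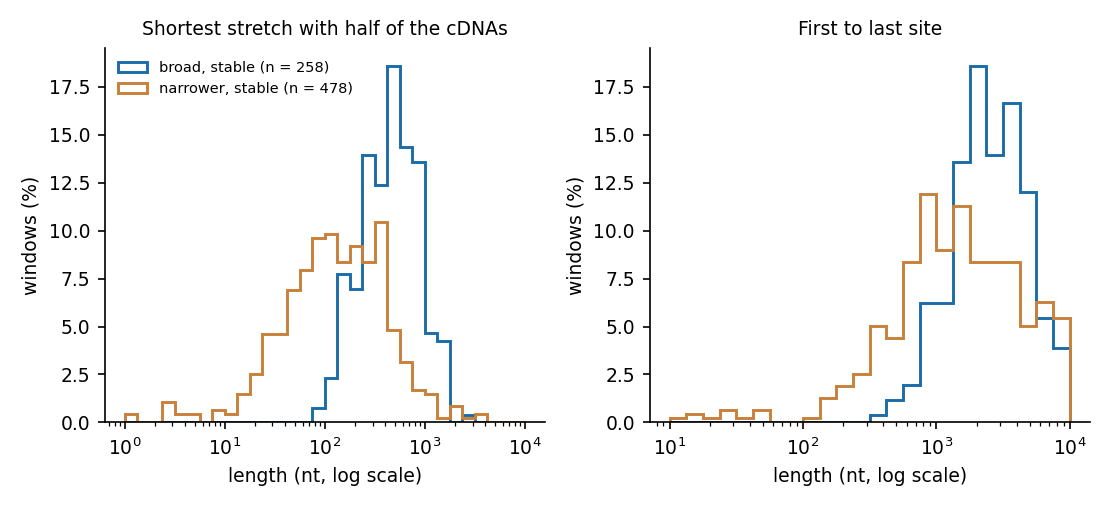
Share of windows (y, percent) by length in nt (x, log scale) of the shortest stretch holding 50% of the cDNAs (left) and of the distance from first to last site (right). The broadly bound windows centre on 452.5 nt and 2484.5 nt, the narrower ones on 131 nt and 1455.5 nt.

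Within the bound part, sites stood close together in runs and single nucleotides stayed weak. Sites at most 15 nt apart formed a cluster when at least 2 were present, and a member had 14 clusters in the median (1 to 43). Clusters held at least 96.8% of the nucleotides of every member. The longest cluster of a member was 182.5 nt in the median (45 to 683 nt). Chromosome 8 plus at 42710001 had the longest of all, 683 nt, and on chromosome 1 minus at 19920001 all 233 nucleotides formed 1 cluster of 396 nt. Neighbouring preZGA sites were adjacent nucleotides in 38.9% of pairs and at most 15 nt apart in 93.0%. The corresponding values at ZGA were 36.2% and 90.1%. In the narrower windows, neighbouring sites were at most 15 nt apart in 93.7% of pairs at preZGA and 92.3% at ZGA. They were adjacent nucleotides more often than in members, in 52.9% of pairs at preZGA and 49.7% at ZGA. In the broad windows outside the ratio limits adjacent pairs made up 46.8% and 40.8%, also above the members. The listed sites passed a significance filter with a neighbourhood of 15 nt, which bears on these values, and its part was not tested.

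The mean number of cDNAs per site in the members was 1.56 at preZGA and 1.49 at ZGA, beside 2.08 and 2.01 in the narrower windows. Sites with 1 cDNA made up 68.8% at preZGA (68.4 to 69.2) and 71.5% at ZGA (71.0 to 71.9). Only 152 of 55330 preZGA sites and 60 of 38127 ZGA sites held 10 or more cDNAs, and the strongest held 28 and 23. The strongest nucleotide of a member carried 1.79% of its cDNAs in the median, from 0.637% to 4.97%. The highest such shares were on chromosome 12 minus at 11540001, with 49 cDNAs on nucleotide 11544178, 2 minus at 17270001 (31 cDNAs, 4.63%) and 20 minus at 28450001 (29 cDNAs, 4.61%). Chromosome 17 plus at 28100001 (21 cDNAs, 4.53%) and 2 plus at 4350001 (42 cDNAs, 4.51%) came next. Few cDNAs per nucleotide follow in part from the rule, which asks for many nucleotides under a ceiling on cDNAs.

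**Figure D3:**
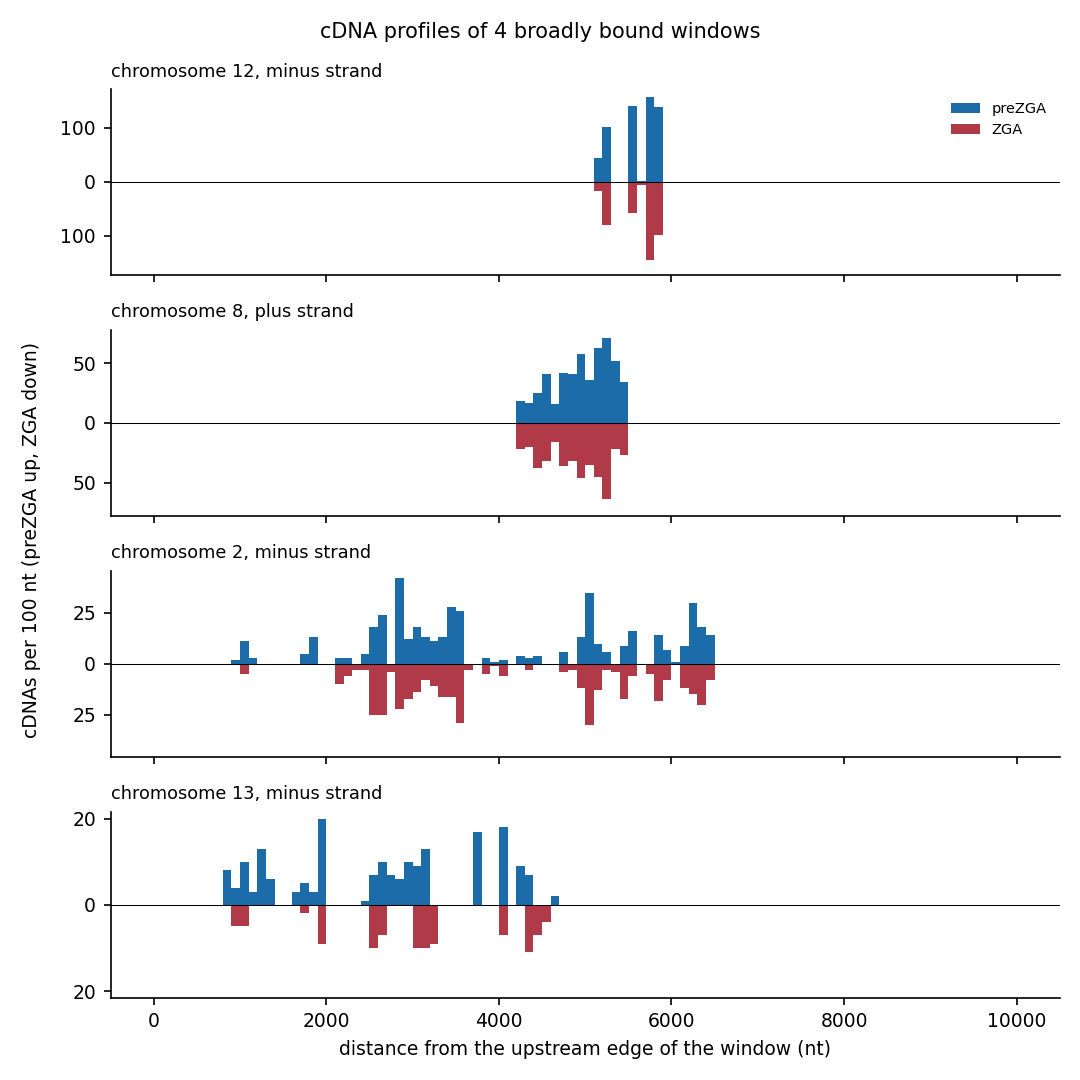
cDNAs per 100 nt (preZGA upward, ZGA downward) against the distance from the upstream edge of the window in nt, for 4 members: the one with the strongest nucleotide share (chromosome 12), the longest cluster (chromosome 8), the most nucleotides (chromosome 2) and the lowest share of preZGA sites found again at ZGA (chromosome 13). The bound parts span 686, 1286, 5522 and 3744 nt.

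The rule did not use where in the window the sites lay. Its count of distinct nucleotides over both stages does depend on how many positions they share. On the scale of 100 nt the 2 stages resembled each other. When each window was divided into bins of 100 nt, the distributions of preZGA and ZGA cDNAs overlapped by 77.5% in the median (75.8 to 78.7), with a range of 47.0% to 93.0%. The overlap was 74.1% in the narrower windows (72.8 to 75.3), and 63.8% in the 30 windows that were as broad but lay outside the ratio limits (58.1 to 71.5). Members, narrower windows and these broad windows held a median of 202, 115 and 130.5 ZGA cDNAs. The part of this difference in the overlap was not tested. Chromosome 8 plus at 42710001 had an overlap of 90.7%, chromosome 12 minus at 11540001 86.8%, and chromosome 13 minus at 51420001 50.1%. The centre of the cDNAs along the strand differed by a median of -12.0 nt between the stages (-24.2 to 5.95), negative values being upstream at ZGA. It moved downstream in 118 of 258 members, and by over 500 nt in 1 member downstream and 4 upstream. By this measure no common shift of the centre was detectable.

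At the level of the single nucleotide, about 1 in 4 preZGA sites of the members was listed again at ZGA. The stages shared 15387 nucleotides, which were 27.8% of preZGA sites (27.4 to 28.2) and 40.4% of ZGA sites (39.9 to 40.9). In the narrower windows the shares were 34.9% (34.5 to 35.4) and 49.3% (48.8 to 49.9), but the rule bears on this difference. The number of distinct nucleotides is the sum of the sites of both stages less the shared ones, so a limit on it favours less sharing among members and more among narrower windows. The members also held more cDNAs per window than the narrower windows, 496.5 and 287 in the median, and fewer per nucleotide, and the part of either in the sharing was not tested. Shared nucleotides carried 36.7% of the members' cDNAs at preZGA and 48.7% at ZGA. At preZGA they held 2.05 cDNAs each, where unshared ones held 1.36, and at ZGA 1.79, where unshared ones held 1.28. Allowing 15 nt, 80.3% of preZGA sites and 89.1% of ZGA sites had a counterpart. The strongest nucleotide, ties included, was the same at both stages in 39 of 258 members (15.1%, 11.0 to 20.1), and in 122 of 478 narrower windows (25.5%, 21.7 to 29.7). In the broad windows outside the ratio limits it was the same in 4 of 30 (13.3%, 3.76 to 30.7). This nucleotide held 1.79% of the cDNAs in members and 3.95% in narrower windows in the median. The rule bears on that difference, and its part was not tested.

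Members differed widely in this sharing. The share of preZGA sites listed again at ZGA ran from 6.90% to 65.7% per window, with a median of 25.5%. It was highest on chromosome 23 plus at 36360001 (65.7%), 12 minus at 11540001 (63.1%), 16 minus at 35410001 (61.3%), 3 minus at 39960001 (53.3%) and 20 plus at 2770001 (52.6%). It was lowest on chromosome 13 minus at 51420001 (6.90%), 18 minus at 41660001 (7.02%), 10 plus at 15620001 (8.28%), 14 minus at 51940001 (8.78%) and 7 minus at 640001 (9.60%). In the first 5 windows the cDNAs per site were higher than in the last 5. When the members were ordered by cDNAs per preZGA site and divided into 3 groups of 86, the median share went from 18.1% in the lowest group to 24.9% and 36.9%. These groups held a median of 361, 523.5 and 683 cDNAs per window, in the same order. Ordered by the number of nucleotides, the medians of the 3 groups were 24.3%, 25.2% and 26.5%. Those groups held a median of 365, 457.5 and 676.5 cDNAs. The part of the window totals in either ordering was not tested.

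The values at equal strength are given as a description, since the limit on nucleotides bears on them too. Of preZGA sites with 1 cDNA, 21.2% in members (20.8 to 21.6) and 23.9% in narrower windows (23.4 to 24.5) were listed at ZGA. With 2 cDNAs the shares were 33.4% (32.5 to 34.3) and 37.4% (36.4 to 38.3), and with 3 or 4 they were 51.9% (50.5 to 53.3) and 52.1% (50.9 to 53.3). With 5 to 9 cDNAs they were 72.5% (70.1 to 74.8) and 70.9% (69.3 to 72.5), and with 10 or more 86.8% (80.4 to 91.8) and 91.4% (88.9 to 93.5). The intervals were separate for sites of 1 and 2 cDNAs and overlapped from 3 cDNAs on, where the widest difference, at 10 or more, rested on 152 sites of members. From the ZGA side, intervals were separate at 1 cDNA, at 33.6% (33.1 to 34.2) and 38.2% (37.5 to 38.9), and at 2 cDNAs, at 49.3% and 54.8%. At 3 or 4 cDNAs they were 67.2% (65.5 to 68.8) and 70.4% (69.0 to 71.7), again separate by a narrow margin, and they overlapped above that.

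**Figure D4:**
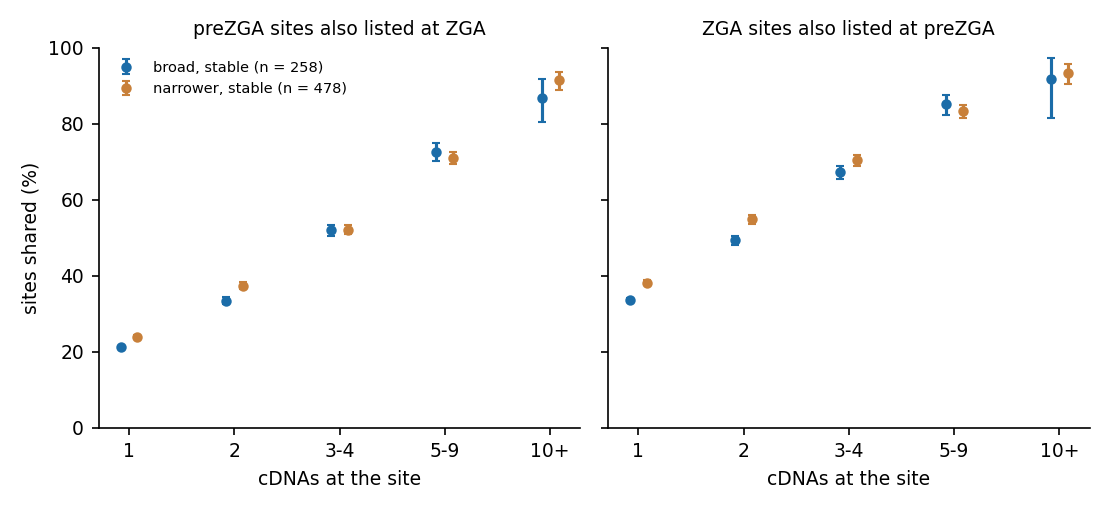
Percent of sites listed at the other stage (y) by the number of cDNAs at the site (x), with exact 95% binomial intervals, for preZGA sites (left) and ZGA sites (right). In both sets the percent goes up with the strength of the site, in members from 21.2% to 86.8% at preZGA and from 33.6% to 91.7% at ZGA.

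The neighbourhood of a preZGA site shows a sharp peak on a broad base. A ZGA site lay on the same nucleotide for 27.8% of the members' preZGA sites, 1 nt downstream for 24.9% and 1 nt upstream for 24.5%. At 50 nt the values were 13.0% downstream and 12.4% upstream, and at 100 nt 11.0% and 10.9%. In the narrower windows the peak was higher and the base lower, at 34.9% on the nucleotide and 7.42% and 6.56% at 100 nt downstream and upstream. In the broad windows outside the ratio limits it was 20.1% on the nucleotide and 6.33% and 5.91% at 100 nt downstream and upstream. Of these 30 windows, 29 lay below the lower ratio limit. They held 6681 preZGA and 2638 ZGA sites, so the choice bears on their percentages. Counted from ZGA, 50.9% of their sites were shared (49.0 to 52.9), beside 40.4% in members. The rule fixed in part how many sites a member held, and the cause of the higher base was not tested.

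The pattern around the site was not symmetric. In members the sides were similar at 1 nt, with 24.9% downstream and 24.5% upstream. They were further apart at 20 nt, with 15.9% downstream and 13.5% upstream. Counting all pairs 1 to 15 nt apart, ZGA sites lay downstream of preZGA sites 169304 times and upstream 154481 times, a ratio of 1.10. More pairs were downstream in 217 of 258 members (84.1%, 79.1 to 88.3) and upstream in 39. The narrower windows showed the same direction, with a ratio of 1.13 and 378 of 478 windows, and so did the broad windows outside the ratio limits, with 1.11 and 22 of 30. The asymmetry was therefore not limited to the members. Each stage was 1 set of libraries, so stage and library preparation cannot be told apart here.

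**Figure D5:**
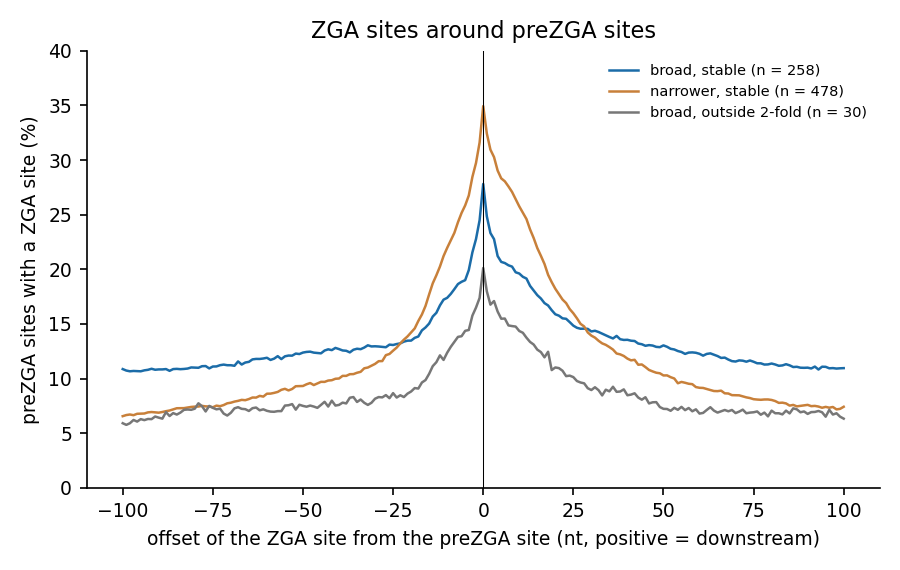
Percent of preZGA sites with a ZGA site at each offset (x, nt, positive values downstream on the strand) for members, narrower windows and broad windows outside the ratio limits. The members peak at 27.8% on the same nucleotide and fall to 11.0% and 10.9% at 100 nt, and in all 3 sets more pairs of sites lie 1 to 15 nt downstream than upstream.

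A stable window total did not mean that each cluster kept its part of the window. Sites of both stages formed 4089 clusters in the members. Of these, 2384 (58.3%, 56.8 to 59.8) had sites at both stages, 1109 at preZGA alone and 596 at ZGA alone. Over all nuclear windows of at least 100 cDNAs, 8071 of 15208 clusters (53.1%, 52.3 to 53.9) had sites at both stages. There, 4792 had sites at preZGA alone and 2345 at ZGA alone. In the narrower windows 55.4% of clusters had sites at both stages. Of the members' clusters, 1570 held 20 or more cDNAs without holding the whole window. Their share of the window's cDNAs was compared between the stages. The share was at least 2-fold higher at ZGA with an interval of the odds ratio above 1 in 119 clusters (7.58%), beside 11.2% of the 6089 such clusters in all nuclear windows of at least 100 cDNAs. It was at least 2-fold lower with an interval below 1 in 175 (11.1%), beside 16.8%. In the narrower windows the percentages were 12.8% higher and 16.9% lower. In the broad windows outside the ratio limits they were 10.6% and 28.0%. As a share of clusters, both percentages of the members were below those of all windows. All windows include ones outside the limits on cDNAs and ratio, so the rule bears on this difference, which was not tested. Counted by window, such clusters lay in 154 of the 257 members with a cluster of this size, and in 914 of 1693 of all such windows. An interval that excluded 1, at any size of the difference, was found in 26.2% of the members' clusters and in 39.9% of all.

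In some clusters the difference was complete in the listed sites. Of the 119 higher clusters 27 had no significant site listed at preZGA, and of the 175 lower ones 81 had none listed at ZGA. Over all windows of at least 100 cDNAs this held for 164 of 681 higher and 610 of 1024 lower clusters. The examples with the most extreme intervals, chosen after their values were seen, were 22 to 84 nt long. On chromosome 11 minus, 39776377 to 39776428 held 70 cDNAs over 36 sites at ZGA, 29.0% of its window, and no listed site at preZGA, where the rest of the window held 443 cDNAs. Chromosome 3 plus at 18659677 to 18659720 held 76 cDNAs at ZGA (19.0% of its window), 3 plus at 32551923 to 32551944 held 50 (12.8%) and 11 plus at 30424250 to 30424296 held 33 (20.5%), again with none listed at preZGA.

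In the other direction, chromosome 2 plus at 25992443 to 25992486 held 68 cDNAs at preZGA, 15.1% of its window, and none listed at ZGA, where the window held 276. Chromosome 8 minus at 41823160 to 41823243 held 72 (15.9%), 20 minus at 38788928 to 38788954 held 54 (10.6%) and 25 minus at 29855579 to 29855621 held 48 (12.2%). These 8 clusters had no multi-mapping and no IgG cDNAs listed at either stage. The tables leave out sites that missed the significance filter, so a cluster with no entry is not shown to be unbound.

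An IgG site was listed in a minority of the members, and the share depended on which sites were counted. A uniquely mapped IgG site was listed in 31 members at preZGA (12.0%, 8.31 to 16.6) and in 11 at ZGA (4.26%, 2.15 to 7.50), where 9.17% and 7.74% of all nuclear windows of at least 100 cDNAs had one. Counting IgG sites of at least 2 cDNAs alone, the shares were 5.43% at preZGA and 2.71% at ZGA. With multi-mapping IgG sites added they were 14.7% at preZGA and 10.9% at ZGA. In 1 member, chromosome 11 minus at 24510001, IgG sites were listed at both stages. In all, 9606 uniquely mapped IgG cDNAs on 1508 sites were listed at preZGA and 20262 on 3709 sites at ZGA. Of these, the members held 85 on 69 nucleotides at preZGA and 26 on 19 nucleotides at ZGA. Per 1000 hnRNP A1 cDNAs this was 0.987 (0.789 to 1.22) at preZGA and 0.458 (0.299 to 0.672) at ZGA. Narrower windows had 1.60 (1.35 to 1.87) and 1.61 (1.31 to 1.94), with intervals above those of the members at both stages. A single narrower window held up to 12 of their 153 IgG cDNAs at preZGA and up to 27 of 105 at ZGA. An IgG site was listed in 8.79% of them (6.41 to 11.7) at preZGA and 5.65% (3.76 to 8.11) at ZGA. Both of these intervals overlap those of the members. In the broad windows outside the ratio limits the rate per 1000 was 0.785 (0.359 to 1.49) at preZGA and 0.924 (0.252 to 2.37) at ZGA. These rates rested on 9 and 4 IgG cDNAs, and their intervals overlap those of the members.

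No member held more than 6 IgG cDNAs at preZGA or 4 at ZGA. The most were on chromosome 2 minus at 51530001 and 21 plus at 37070001, with 6 each at preZGA, and 2 plus at 25990001 with 5. Chromosome 11 minus at 24510001 held 2 at preZGA and 3 at ZGA, and 23 minus at 22790001 held 4 at ZGA. The first 3 windows held 453, 229 and 451 hnRNP A1 cDNAs at preZGA, in the same order. Chromosome 11 minus at 24510001 held 341 at preZGA and 248 at ZGA, and 23 minus at 22790001 held 246 at ZGA.

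Multi-mapping cDNAs, which match several places and are divided over them, were concentrated in 4 members. Those 4 held 1453 of the 1658 multi-mapping hnRNP A1 cDNAs of all members, and 122 members held none. By stage, 35.3% of members held some at preZGA and 40.7% at ZGA. In the narrower windows the shares were 57.9% and 54.4%. In the broad windows outside the ratio limits they were 43.3% at each stage. Chromosome 2 minus at 44440001 held 382 at preZGA and 325 at ZGA, beside 454 and 282 unique ones. Chromosome 16 minus at 44140001 held 190 and 128, 19 plus at 49360001 held 172 and 128, and 12 minus at 4480001 held 106 and 22.7. Chromosome 17 plus at 32830001 followed with 13.3 and 12.5. In the first 4 windows the unique counts alone leave out a sizeable part of the assigned signal.

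Binding on the opposite strand of the same 10 kb was found in a minority of the members. It was listed in 36 of 258 windows at either stage, with 1360 cDNAs in all, of which 944 lay in 5 windows. By stage it was listed in 9.69% of members at preZGA and 10.1% at ZGA, beside 7.11% and 7.32% of the narrower windows. In the broad windows outside the ratio limits the shares were 3.33% and 6.67%. These differences were not tested. Opposite chromosome 7 minus at 44630001 there were 137 cDNAs at preZGA and 123 at ZGA. The counts were 153 and 86 opposite 23 minus at 33940001, 61 and 160 opposite 19 plus at 32830001, 62 and 60 opposite 8 plus at 26600001, and 36 and 66 opposite 11 plus at 30420001. In no case were both strands of the same 10 kb members.

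The members were spread over all 25 nuclear chromosomes and both strands, with 122 on plus and 136 on minus. Chromosome 5 held the most, 24, followed by chromosome 2 with 21 and chromosome 8 with 16. As a share of the stable windows within the cDNA limits on a chromosome, members ranged from 8.0% on chromosome 1 (4 of 50) to 28.0% on chromosome 2 (21 of 75), beside 19.1% over all. Chromosome 4 up to the limit of the rule held 2 of 21.

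Few members had another member next to them on their strand. Of the 258, 242 had no member next to them and 16 formed 8 runs of 2 windows. Members made up 258 of 18799 windows with a site, and the number of runs was not compared with that of other windows. The run with the most cDNAs was on chromosome 6 plus from 38650001 to 38670000, with 849 cDNAs at preZGA and 666 at ZGA over 928 nucleotides. It was followed by chromosome 7 minus from 6160001 (839 and 590 cDNAs), 5 minus from 66050001 (674 and 485), 10 minus from 16840001 (727 and 393) and 2 minus from 51530001 (643 and 454).

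Sites next to a member were found more often on the upstream side of the RNA strand. The adjoining upstream 10 kb held an hnRNP A1 site in 86 of 258 cases (33.3%, 27.6 to 39.4) and the downstream 10 kb in 55 (21.3%, 16.5 to 26.8). In the narrower windows this was 41.6% (37.2 to 46.2) and 24.3% (20.5 to 28.4). In the broad windows outside the ratio limits it was 50.0% (31.3 to 68.7) and 43.3% (25.5 to 62.6). Both sides were counted for the same windows, and the difference between sides was not tested. At 100 cDNAs or more the numbers for members were 25 upstream and 17 downstream, and no member had both. In 131 members neither side held a site.

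Inside the window, 74 members (28.7%, 23.2 to 34.6) had a site-free gap of over 1000 nt between sites. In 51 of these 74 (68.9%, 57.1 to 79.2) more cDNAs lay downstream of the largest gap than upstream, with a median of 87.8% downstream. Such a gap was found in 34.5% of the narrower windows and in 33.3% of the broad windows outside the ratio limits. Narrower windows with such a gap showed the same direction in 117 of 165 (70.9%, 63.3 to 77.7). The broad windows outside the limits did so in 5 of 10 (50.0%, 18.7 to 81.3), with a median of 52.2% downstream. Over all members the centre of the cDNAs lay past the middle of the bound part, on its downstream side, in 134 of 258 at preZGA (51.9%, 45.7 to 58.2) and in 133 at ZGA, so no lean to either end was detectable there. In the narrower windows the numbers were 274 of 478 (57.3%, 52.7 to 61.8) and 282 (59.0%, 54.4 to 63.4), with intervals that overlap those of the members.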

How the data were processed

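RNA was trimmed with RNase I and copied into cDNA after gel purification of the antibody-bound complexes, per the labels' protocols. The authors deposited signed cDNA counts per nucleotide, per the file headers with an FDR below 0.01, 100 permutations, a neighbourhood of 15 nt, regions tested separately, and Ensembl 72. Zv9 and CASAVA 1.4 are named in the submitters' processing notes; aligner and duplicate removal are not given in the sources used here. The sign was taken as the strand. The 26 files held 8 distinct tables, and copies were counted once. The labels describe 3 summed replicates, while the ZGA hnRNP A1 table names 4 libraries; this was not settled.

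Members and measures were chosen with earlier results of these data known. Windows named in the text are the extremes of cDNAs, nucleotides, ratio, sharing, strongest nucleotide, IgG and multi-mapping cDNAs, the leading runs, and windows next to each limit. Ratios have exact conditional binomial intervals, shares exact (Clopper-Pearson) intervals, medians order-statistic intervals, cluster odds ratios conditional exact intervals, and IgG rates exact Poisson intervals, all at 95%. The window code was tested on simulated data. Alternatives covered window grid, limits, minimum cDNAs per site, scaling, mapping, tolerance, thinning and merge distance. Software was scipy 1.17.1, pandas 2.3.3, numpy 2.4.6 and matplotlib 3.10.9 under Python 3.11.15.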

Additional observations from a re-analysis of the deposited data

How the results depend on the processing

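No paired analysis was possible because each group was deposited as 1 pooled table, so same-numbered replicates could not be set against each other, and for the same reason no replicate could be left out. Of the alternative settings 32 moved a value beyond its interval (or a count by over 1.5 times) and 9 did not. In place of 258 members there were 18 with sites of at least 2 cDNAs, 436 with a limit of 150 nucleotides and 98 with 300, so the membership rests on sites of 1 cDNA. Grid, scaling, ratio limits and added multi mapping gave 199 to 279, and leaving out windows with an IgG site, added after seeing the data, gave 217.

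The members' percent of listed cDNAs at preZGA was 12.1 and 5.48 with sites of at least 2 and 5 cDNAs, 17.8 without the 10 strongest windows and 14.0 with multi mapping added. At ZGA it was 8.41, 2.62, 15.2 and 10.5. The summed share ratio was 0.990 by site numbers, 0.693 and 0.479 with sites of at least 2 and 5 cDNAs, 0.853 without the 10 strongest windows and 0.750 with multi mapping, so it stayed below 1 in these settings and nearly reached it by sites.

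Shared preZGA sites made up 47.2% within 1 nt, 80.3% within 15 nt, 22.2% among sites of at least 2 cDNAs and 28.6% with the preZGA table thinned to the ZGA total. Shared ZGA sites made up 62.9%, 89.1%, 35.2% and 36.2%. With IgG sites of at least 2 cDNAs, 5.43% of members had one at preZGA and 2.71% at ZGA. With multi-mapping IgG sites added, the shares were 14.7% at preZGA and 10.9% at ZGA. With multi mapping the mean was 1.54 cDNAs per site at preZGA and 1.47 at ZGA. The strongest run in place of the nucleotide held 29.1% of a member's cDNAs. Merging within 3 and 30 nt gave 47.5 and 10 clusters, and 100-nt bins with a site covered 1700 nt. The cause of these differences was not tested beyond what each setting itself leaves out or adds.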
